A study of Mus musculus with 24 samples.

Results

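The data described here are the 4 libraries that compared KLA-stimulated bone marrow-derived macrophages (BMDMs) lacking thymine DNA glycosylase (TDG iKO) with those of wild type (WT). They were chosen by their labels, 2 libraries for each genotype, out of 24 in the series, and both genotypes carried replicate numbers 1 and 2. No gene passed the test of a difference between the genotypes after 6 h of KLA, and for 6654 genes a change of 2-fold or more was rejected. Among genes that averaged at least 50 normalised counts, 3 differed 2-fold in both same-numbered pairs without overlap between the genotypes. In TDG iKO the scavenger receptor gene Marco was lower and the serotonin transporter gene Slc6a4 and the deiodinase gene Dio2 were higher, and none of them passed the test over all genes.

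KLA (Kdo2-lipid A) is the part of bacterial lipopolysaccharide that Toll-like receptor 4 (TLR4) recognises. TLR4 signals through the adaptors MyD88 and TRIF to NF-κB and to the interferon regulatory factors, and a macrophage answers with a burst of cytokine, chemokine and interferon-stimulated transcripts. TDG cuts thymine, 5-formylcytosine and 5-carboxylcytosine out of DNA so that base excision repair can put cytosine back. The formyl and carboxyl bases are made from 5-methylcytosine by the TET dioxygenases, so TDG is the enzyme by which methylation can be removed without cell division. Macrophages that have left the cell cycle are therefore a setting in which a need for TDG in gene activation can be asked, and the comparison addressed that question at the level of mRNA.

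The mice were of the C57BL/6 strain, aged 8 to 16 weeks. TDG iKO mice carried Tdg fl/fl and CreERT2, a tamoxifen-activated Cre recombinase driven by the ubiquitin C promoter and inserted at the Ndor1 locus. In the study's T cell experiments they also carried the reporter Rosa26-H2B-EGFP/GPI-mCherry LSL. Tamoxifen was injected into Cre-expressing mice and into controls alike, and the labels call the controls wild type, so the loss of TDG and the presence of CreERT2 cannot be told apart in these groups. The promoter is active in most cells, so deletion was not limited to macrophages, and marrow cells were grown in medium conditioned by L929 cells, a source of M-CSF, before KLA was given. The labels do not say how many mice gave each library, and p-values then measure the spread between libraries. That spread was estimated from 8 libraries, these 4 and the matching 4 at 0 h. In bulk samples, fewer cells of a type and less RNA per cell cannot be told apart.

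Assigned counts at 6 h were 8612504 and 15935186 in TDG iKO replicates 1 and 2 and 9112682 and 15235226 in WT replicates 1 and 2, so replicate 1 was the shallower in both genotypes. Read pairs that did not align made up 7.03% (95% Wilson interval 7.02 to 7.05, counting error only) of TDG iKO replicate 1 against 2.09% to 2.52% of the other 3 libraries. In the pair of replicate 1 the ratio TDG iKO over WT was lower for longer genes (Spearman rho -0.18 over the 8702 genes with an exonic length, across genes, which are not independent replicates), and in the pair of replicate 2 it was not (rho -0.03). At 0 h, where the matching libraries served the fit of the spread, WT replicate 2 held only 4982950 counts, 9.02% of its pairs did not align, and the length relation of its pair was 0.55. Counts were divided by DESeq2 size factors, and these are the normalised counts given below.

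Tdg itself could not serve as the check of the labels. Its raw counts were 0 and 0 in TDG iKO replicates 1 and 2 and 1 and 3 in WT replicates 1 and 2, at or below the floor of 3 counts in every library. The gene lies on chromosome 10 (mm9, chr10:82092573-82113544, plus strand), and reads that match several places were not assigned to a gene. Of 35 windows of 50 bases, taken every 100 bases along the longest annotated Tdg transcript of 3502 bases, 28 (80%) also occurred elsewhere in mm9 without a mismatch. The qRT-PCR primers for Tdg had the same property and are shown for that reason. Each had 4 exact matches in mm9, 1 in Tdg and 3 elsewhere.
mTdg-qPCR-F: tgaaaaggaaagtggaccgc
mTdg-qPCR-R: gtgattcagctgcacctcac
The forward primer lies at chr10:82104205-82104224 and the reverse primer at chr10:82106942-82106961 within Tdg, and the copies outside the gene are on chromosome 7, on chromosome 15 and at another place on chromosome 10.

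Ndor1, the diflavin reductase gene whose locus holds CreERT2, does not serve as a check of the labels either. It had 143 and 203 normalised counts in TDG iKO replicates 1 and 2 and 271 and 350 in WT. Both knockout libraries lay below both WT libraries, as they did for 603 of 9104 genes averaging at least 50 counts (6.62%). The log2 fold change was -0.84 (SE 0.41, 95% interval -1.63 to -0.04), with a DESeq2 adjusted p of 1. At 0 h Ndor1 had 132 and 233 in TDG iKO and 274 and 239 in WT, with log2 ratios of -1.05 and -0.04 in the pairs. Tmem203 overlaps Ndor1 on the opposite strand, and the strand setting of the counting is not given in the sources used here.

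Promoter sequences are shown for the genes on which the comparison turns, 250 bases before the start site, from RefSeq on GRCm38.p6. The first pair are induced genes whose level was called within 2-fold, Il6 (interleukin 6) and Nfkbia (the NF-κB inhibitor IκBα). Il6 was a borderline case, since its interval, given below, passed 2-fold on both sides. Capitals mark the NF-κB motif GGGANTTTCC, searched on both strands.
Il6 (chr5:30012864-30013113, plus strand): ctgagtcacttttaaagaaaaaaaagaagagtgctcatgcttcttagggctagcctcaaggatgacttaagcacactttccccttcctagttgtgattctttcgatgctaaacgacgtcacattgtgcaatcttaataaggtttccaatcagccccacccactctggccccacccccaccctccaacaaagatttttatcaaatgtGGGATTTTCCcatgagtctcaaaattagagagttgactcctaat
Nfkbia (chr12:55492648-55492897, minus strand): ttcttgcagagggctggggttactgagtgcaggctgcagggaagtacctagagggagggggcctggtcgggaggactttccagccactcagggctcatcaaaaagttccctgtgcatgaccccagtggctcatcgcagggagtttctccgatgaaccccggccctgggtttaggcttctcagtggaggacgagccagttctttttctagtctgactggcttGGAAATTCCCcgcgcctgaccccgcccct
Of 16 activation and enhancer-linked genes named below, 13 had a promoter in the table and 3 held the motif (Il6, Mdfic and Nfkbia). Of the KLA-induced genes described below, 7 of 156 with a promoter held it (4.49%). Among genes averaging at least 50 counts the share was 0.484%, and 0.356% of all 32851 promoters of this length held it. The next 3 are the genes whose 2-fold ratio agreed in both pairs, and there capitals mark CpG, the dinucleotide in which mammalian methylation is found.
Marco (chr1:120505025-120505274, minus strand): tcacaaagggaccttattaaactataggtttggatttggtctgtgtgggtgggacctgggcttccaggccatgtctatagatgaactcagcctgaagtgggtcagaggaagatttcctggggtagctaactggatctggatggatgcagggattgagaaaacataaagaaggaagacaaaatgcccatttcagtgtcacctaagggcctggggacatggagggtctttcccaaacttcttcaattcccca
Slc6a4 (chr11:76998347-76998596, plus strand): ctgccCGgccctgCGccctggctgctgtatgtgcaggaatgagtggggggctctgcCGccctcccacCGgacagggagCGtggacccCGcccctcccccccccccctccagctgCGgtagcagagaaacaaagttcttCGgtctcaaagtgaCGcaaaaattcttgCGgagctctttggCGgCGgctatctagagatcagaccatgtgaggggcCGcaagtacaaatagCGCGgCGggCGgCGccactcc
Dio2 (chr12:90739039-90739288, minus strand): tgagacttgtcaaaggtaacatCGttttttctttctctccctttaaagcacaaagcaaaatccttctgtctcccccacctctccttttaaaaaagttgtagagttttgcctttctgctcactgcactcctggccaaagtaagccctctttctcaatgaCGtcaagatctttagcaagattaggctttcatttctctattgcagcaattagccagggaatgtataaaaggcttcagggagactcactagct
The Marco promoter held 0 CpGs, that of Dio2 2 and that of Slc6a4 18, against a median of 6 over all promoters in the table. None of the 3 held the NF-κB motif, which says only that these letters are not in this window. The files hold no methylation values, and these sequences are a description.

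Across the genome the genotypes gave no call. DESeq2 called 0 of 15026 genes (0%) at an adjusted p under 0.05, with 34 genes at an unadjusted p under 0.05 and a smallest adjusted p of 0.365. edgeR called 0 of 11118, with 27 genes at an unadjusted p under 0.05. Without any difference, a test whose spread matched the data would put a share of about 0.05 of genes under that threshold. The 34 and 27 genes were far fewer, so both tests were conservative and 0 calls is weak evidence of equal levels. Both left the step between replicate numbers in the spread. In DESeq2 with the replicate number as a block 90 genes were under the threshold, and with a separate block at each time 60. Among the 9104 genes whose normalised counts averaged at least 50 over the 4 libraries, the median absolute log2 fold change was 0.09 and 16 genes reached 1 in either direction. The median standard error of those genes was 0.37 on the log2 scale, so for such a gene a 2-fold change is under 3 standard errors.

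A missed call does not show that levels were equal, so each gene was also tested against the hypothesis of a change of at least 2-fold. That hypothesis was rejected at an adjusted p under 0.05 for 6654 of 12112 genes (54.9%), and for 6641 of the 9104 genes with a mean count of at least 50 (72.9%). For a narrower range of 1.5-fold it was rejected for 0 of 15026 genes (0%). The count of genes within 2-fold rested on all 4 libraries. It was 2441 without TDG iKO replicate 1, 1774 without TDG iKO replicate 2, 1738 without WT replicate 1 and 1474 without WT replicate 2. With the replicate number as a block it was 8314 of 10365 (80.2%), and with a separate block at each time 7990 of 9199 (86.9%). In a fit of the 4 libraries at 6 h alone it was 7558 of 9330.

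The genes that KLA switches on were centred on equal levels in the genotypes. The 200 genes with the largest increase in the WT libraries of the Tet cohort, which are not in this comparison, gave 0 calls, and their median log2 fold change TDG iKO over WT at 6 h was 0.01. The 190 of them with a mean count of at least 50 lay between -0.88 and 0.65. By the test 64 of 200 (32%) were within 2-fold, a smaller share than over all genes. In the 2 pairs their median ratio lay on either side of 0, at -0.15 in replicate 1 and 0.12 in replicate 2, and 30 of the 190 were higher and 50 lower in TDG iKO in both pairs, against 25.2% and 24.4% of all 9104 genes. Their median increase from 0 h to 6 h was 2.92 on the log2 scale in WT and 2.82 in TDG iKO of the Tdg cohort. The 200 genes most lowered by KLA also gave 0 calls, with a median of 0.03 and 62 within 2-fold (31%). Over all genes tested the share within 2-fold was 54.9%.

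**Figure D1:**
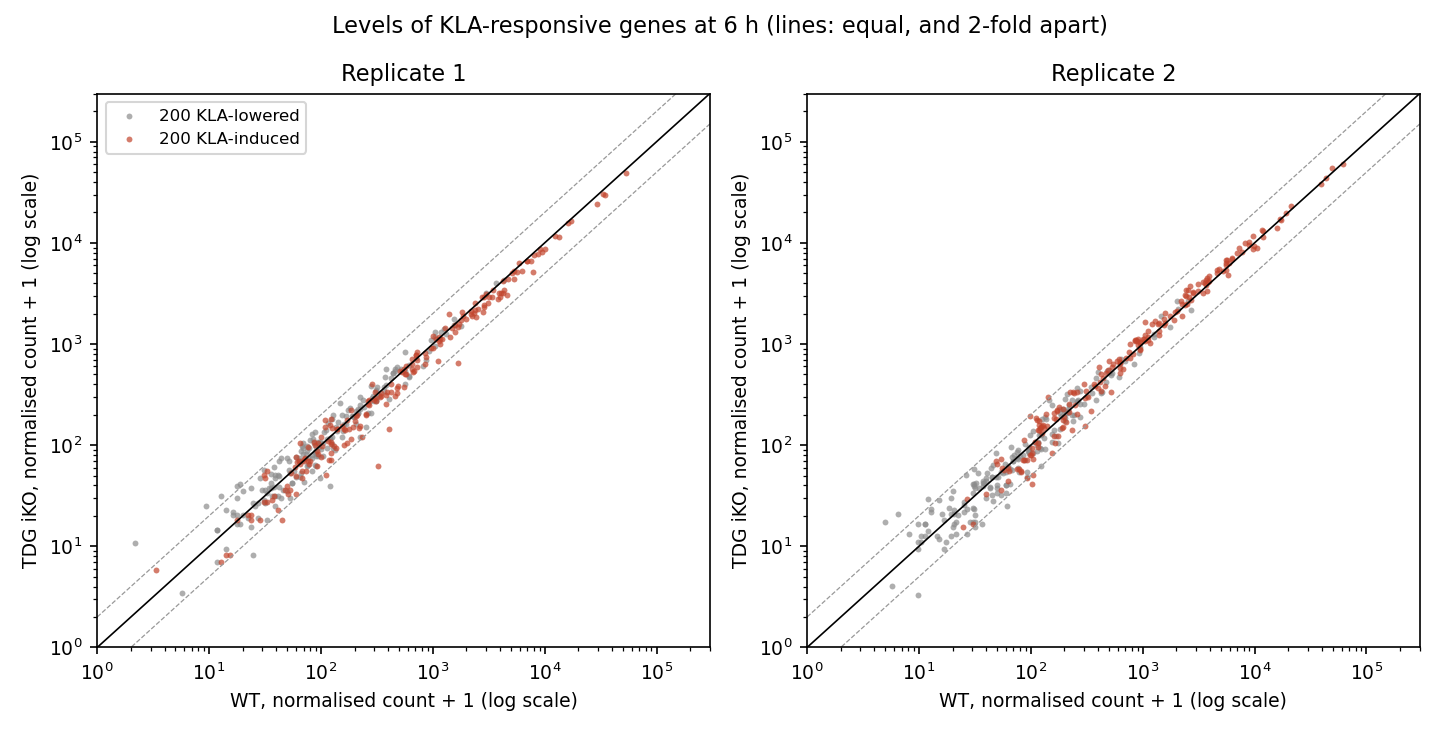
Normalised counts plus 1 at 6 h KLA (log axes) in TDG iKO against WT for the 200 KLA-induced (red) and the 200 KLA-lowered genes (grey), with replicate 1 on the left and replicate 2 on the right. The solid line marks equal levels and the dashed lines a 2-fold difference. Points follow the line of equality in both pairs, with a median log2 ratio of -0.15 and 0.12 for the induced genes.

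The cytokine genes of the acute response did not differ beyond the spread of their replicates. Tnf, the early inflammatory cytokine, had 5324 and 6991 normalised counts in TDG iKO replicates 1 and 2 and 6221 and 6267 in WT. Its log2 fold change was -0.02 (95% interval -0.55 to 0.51), and it was within 2-fold by DESeq2 (adjusted p = 0.0038). The TDG iKO values enclosed the WT values. Il6 had 197 and 388 in TDG iKO and 211 and 370 in WT, with a change of 0.01 (interval -1.004 to 1.02, adjusted p = 0.0499 for the range of 2-fold). Replicate 2 was the higher in both genotypes, by 0.98 and 0.81 on the log2 scale. Il1b, whose protein is the inflammasome product interleukin 1β, had 3409 and 3914 in TDG iKO and 3420 and 3131 in WT. Its change was 0.16 with an interval of -1.02 to 1.34, so the fit of the 8 libraries did not bound it within 2-fold. Il12b, the shared subunit of interleukins 12 and 23, had 300 and 341 in TDG iKO and 336 and 312 in WT, a change of -0.02 (interval -1.39 to 1.36). For Il1b and Il12b the 6 h libraries lay close together. Their wide intervals reflect the spread fitted over the 8 libraries, which include those at 0 h. Il10, the anti-inflammatory cytokine, had 93.5 and 240 in TDG iKO and 83.1 and 214 in WT, a change of 0.17 (interval -0.95 to 1.28). For Il10 the step from replicate 1 to 2, 1.35 in both genotypes, was larger than the step between genotypes.

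The other genes beside selected enhancers that gain 5-hydroxymethylcytosine on stimulation gave no call either. Mdfic, a protein with a MyoD family inhibitor domain, had 2913 and 4136 normalised counts in TDG iKO and 2731 and 3625 in WT and was within 2-fold (change 0.15, adjusted p = 0.0121). Ptgs2, the inducible cyclooxygenase, had 1904 and 3458 in TDG iKO and 2248 and 2552 in WT and was within 2-fold (change 0.16, adjusted p = 0.0255). Alcam, an adhesion molecule, had 1442 and 3193 in TDG iKO and 1645 and 2843 in WT and was within 2-fold (change 0.05, adjusted p = 0.0335). Batf, an AP-1 family transcription factor, had 237 and 573 in TDG iKO and 261 and 469 in WT, a change of 0.15 whose interval (-0.89 to 1.19) reached past 2-fold. In all 4 genes the groups overlapped. Of the 6 enhancer-linked genes 4 were within 2-fold, where 72.9% of genes averaging at least 50 counts were, and 0 were called. These 6 were selected from macrophage data of the same study, and their count is not independent evidence.

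Nfkbia and Tnfaip3, which restrain NF-κB, were within 2-fold. Nfkbia had 7669 and 9464 normalised counts in TDG iKO and 8047 and 8857 in WT, a change of 0.02 within 2-fold (adjusted p = 0.0261). Tnfaip3, which encodes the ubiquitin-editing inhibitor A20, had 4168 and 6220 in TDG iKO and 4903 and 5410 in WT, a change of 0.01 within 2-fold (adjusted p = 0.0174). Irg1, the itaconate-making enzyme now named Acod1, had 48678 and 59744 in TDG iKO and 53262 and 61578 in WT, and was within 2-fold (change -0.08, adjusted p = 0.0467).

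Some effector genes were not bounded, since their replicates lay far apart in both genotypes. Nos2, the inducible nitric oxide synthase, had 337 and 3746 normalised counts in TDG iKO replicates 1 and 2 and 421 and 2660 in WT. Its step between replicates was 3.47 in TDG iKO and 2.66 in WT, its change between genotypes 0.41 (interval -2.59 to 3.41). Ccl5, a chemokine for T cells and monocytes, had 7263 and 33627 in TDG iKO and 7781 and 25934 in WT, a change of 0.28 (interval -2.35 to 2.90). Cxcl10 and Ifit1, which interferon induces, differed by -0.08 and 0.16 between genotypes and by 1.01 to 1.30 between replicates. With a separate replicate block at each time, 15 of these 16 genes were within 2-fold, the other being Il1b (adjusted p = 0.156). Over all genes tested with that block the share was 86.9%. Without the block 8 of the 16 were, where 72.9% of genes averaging at least 50 counts were, and the groups overlapped in all 16.

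**Figure D2:**
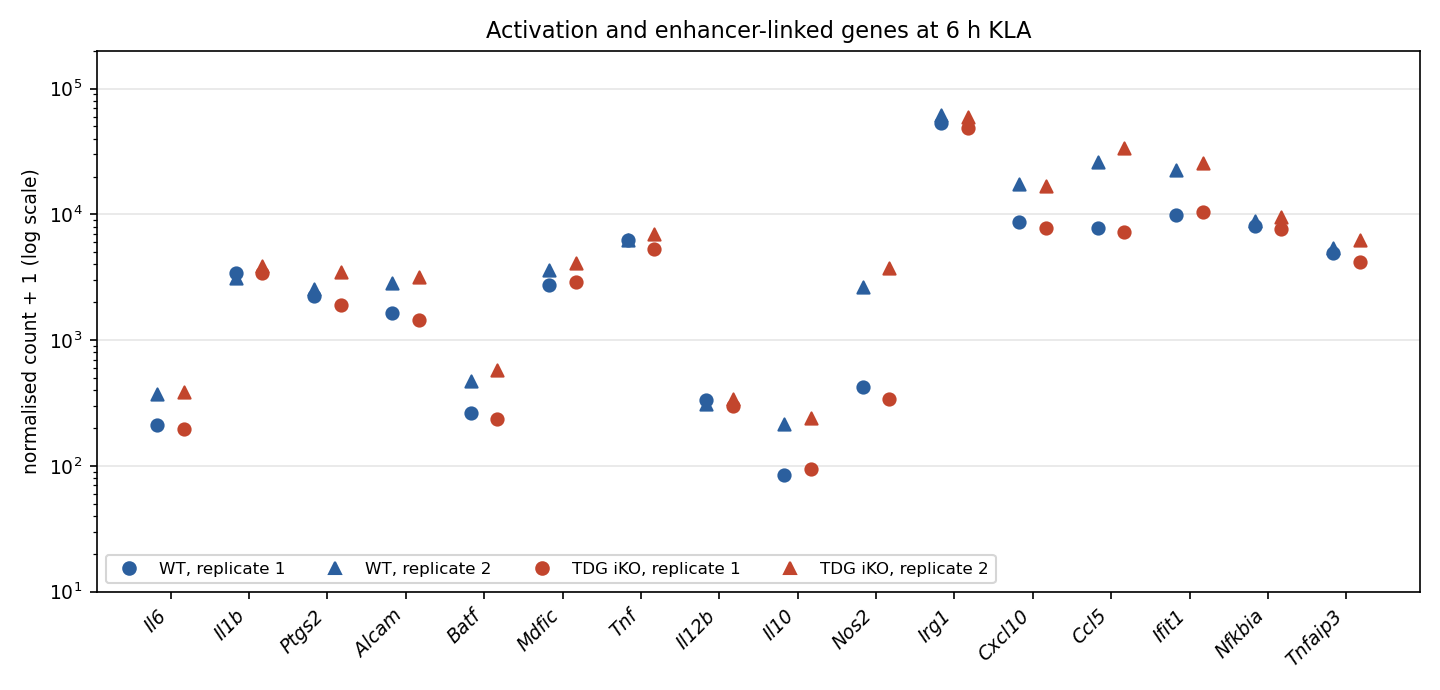
Normalised counts plus 1 (log axis) at 6 h KLA of 16 activation and enhancer-linked genes in each of the 4 libraries, WT in blue and TDG iKO in red, replicate 1 as circles and replicate 2 as triangles. For each gene the same-numbered libraries of both genotypes sit close together, while Nos2, Ccl5 and Il10 are higher in replicate 2 of both genotypes.

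Over 27 gene lists 0 members were called. The 18 tested genes of the TLR4 pathway (receptor complex, adaptors, kinases) all averaged at least 50 counts. All 18 were within 2-fold, where 72.9% of genes averaging at least 50 counts were, and their median log2 fold change was 0.01. Cd14, the TLR4 co-receptor, had 16282 and 14098 normalised counts in TDG iKO and 17356 and 15854 in WT, and Ticam2, an adaptor of the TRIF arm, had the largest increase of the list at 0.31 (interval -0.35 to 0.97). Of 15 NF-κB genes, all averaging at least 50 counts, 11 were within 2-fold, a share near that of 72.9%. Their range was -0.17 (Nfkb1) to 0.13 (Tnip3). Of 16 chemokine genes 7 were within 2-fold, a share below the 54.9% of all genes tested. Ccl22 had 182 and 112 in TDG iKO and 153 and 313 in WT, the largest decrease of that list at -0.67 (interval -1.78 to 0.44). Of 16 inflammatory cytokine genes 4 were, also below the 54.9%, with Il1a at the top (0.47) and Csf3 at the bottom (-0.20).

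Macrophage identity genes gave no call. Of 24 identity genes 19 were within 2-fold, where 72.9% of genes averaging at least 50 counts were. Their summed normalised counts were 650374 and 681706 in TDG iKO and 688074 and 636278 in WT. Lyz2, the macrophage lysozyme, had 162660 and 157648 in TDG iKO and 180282 and 144268 in WT and was within 2-fold (adjusted p = 0.00337). Ctsb, a lysosomal protease, had 138262 and 157670 in TDG iKO and 141589 and 143132 in WT. Of 9 T cell markers with a count in the cohort 5 were at 3 counts or fewer in every 6 h library, among them the defining Cd3d, Cd3e and Cd3g, and the summed level of the list was 102 and 138 in TDG iKO and 91.4 and 105 in WT. Most of that sum was Cd4, a co-receptor that macrophages can also express, at 72.9 and 126 in TDG iKO and 79.5 and 94.2 in WT. Of 9 such B cell markers 3, with the factor Pax5 among them, were at 3 counts or fewer, and the list summed to 98.4 and 17.002 in TDG iKO and 79.5 and 47.5 in WT. Of 4 such erythroid and platelet markers 2, Klf1 and Gp9, were at 3 counts or fewer, while Pf4, a platelet chemokine, had 914 and 856 in TDG iKO and 1163 and 1125 in WT. The part of these cells in the results was not tested.

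Genes of DNA repair and methylation, among which TDG works, gave no call. Of 21 genes of base excision repair 12 were within 2-fold, a share near the 54.9% of all genes tested, with a range of -0.19 (Lig1, a DNA ligase) to 0.29 (Mpg, another DNA glycosylase) among the 15 with a mean count of at least 50. Pcna had 2193 and 1930 normalised counts in TDG iKO and 2215 and 1980 in WT, and Parp1 764 and 665 against 799 and 725. Tet2 had 1086 and 1206 in TDG iKO and 998 and 1259 in WT, a change of 0.02 within 2-fold (adjusted p = 0.00497). Tet3 had 448 and 984 in TDG iKO and 700 and 1103 in WT, a change of -0.33 (interval -1.29 to 0.63), and Tet1 had 3.56 to 12.7 in the 4 libraries, too few to compare. Of 20 methylation genes 11 were within 2-fold and of 19 p53 targets, which DNA damage raises, 11 were, both near the 54.9% as well. However, 18 of the methylation genes and 17 of the p53 targets averaged at least 50 counts. Of all such genes 72.9% were within 2-fold, a larger share than in the repair, methylation and p53 lists. The p53 target Cdkn1a had 6497 and 5048 in TDG iKO against 5691 and 5893 in WT (change -0.01).

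Of 13 glycolysis genes tested 0 were called. The 12 that entered the test of the range were within 2-fold, where 72.9% of genes averaging at least 50 counts were. The 12 members with a mean count of at least 50 had fitted log2 fold changes from -0.41 to -0.07, and 9 were lower and 0 higher in both pairs, against 24.4% and 25.2% of all genes. The size of the difference was uneven, with a median of -0.09 in the pair of replicate 1 and -0.345 in that of replicate 2. The fitted median of -0.19 became -0.39 without TDG iKO replicate 1 and -0.017 without TDG iKO replicate 2. Pfkl, a phosphofructokinase, had 1585 and 1624 normalised counts in TDG iKO and 2104 and 2148 in WT, both below both, with a change of -0.41 that was within 2-fold (adjusted p = 0.0475). Aldoa had 15376 and 14158 against 15782 and 16512. Ribosomal protein genes had a median of 0.01, and 28 of 30 were within 2-fold, a share above that 72.9%. Both genotypes had the ribosomal protein genes lower in replicate 2, by a median of 0.69 in TDG iKO and 0.45 in WT on the log2 scale.

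**Figure D3:**
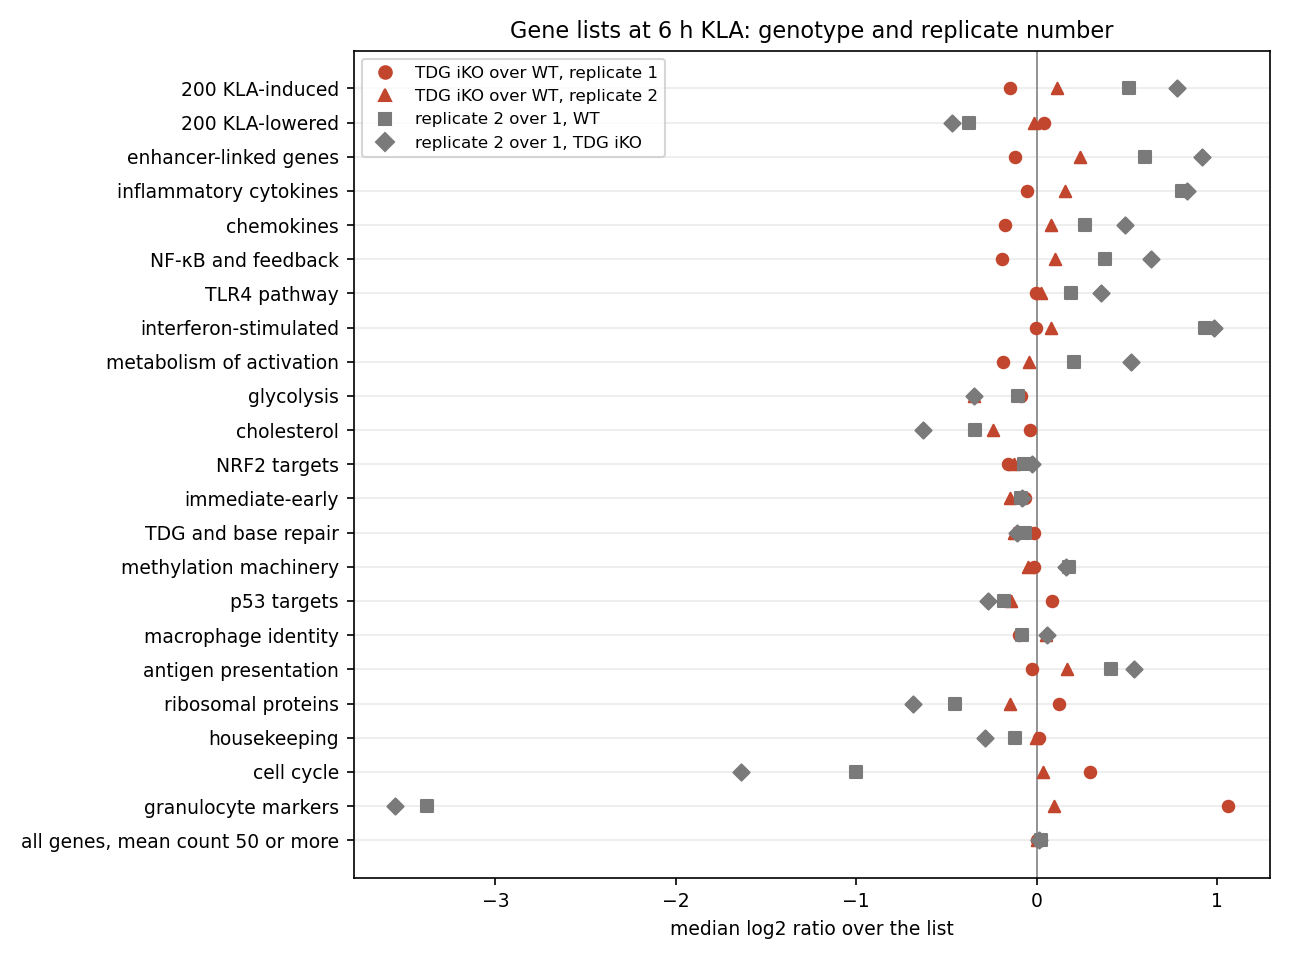
Median log2 ratio at 6 h KLA over each of the gene lists shown, the granulocyte list being the one set of markers of another cell type among them (genes whose normalised counts averaged at least 50). Red symbols compare TDG iKO with WT in the pairs of replicate 1 (circles) and replicate 2 (triangles), and grey symbols compare replicate 2 with replicate 1 in WT (squares) and TDG iKO (diamonds). Among these lists red symbols lie between -0.345 (glycolysis) and 0.30 (cell cycle) apart from granulocyte markers in the pair of replicate 1 (1.06), and grey symbols reach -3.55 for granulocyte markers and 0.98 for interferon-stimulated genes.

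Libraries differed by replicate number far more than by genotype. Across the 9104 genes the ratio TDG iKO over WT in the pair of replicate 1 and that in the pair of replicate 2 had a Pearson r of 0.04, a description across genes. The ratio of replicate 2 over 1 in TDG iKO and that in WT, which share no library, had an r of 0.82. In the pair of replicate 1, 138 genes differed by at least 2-fold between genotypes, in the pair of replicate 2 it was 26, and 146 did so in 1 pair only. With groups that did not overlap, 2 genes were at least 2-fold higher in TDG iKO in both pairs (0.022%) and 1 was lower (0.011%). The same count along the replicate number was 200 higher in replicate 2 in both genotypes (2.2%) and 98 lower (1.08%). At any size, both TDG iKO libraries lay above both WT libraries for 734 genes (8.06%) and below for 603 (6.62%).

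**Figure D4:**
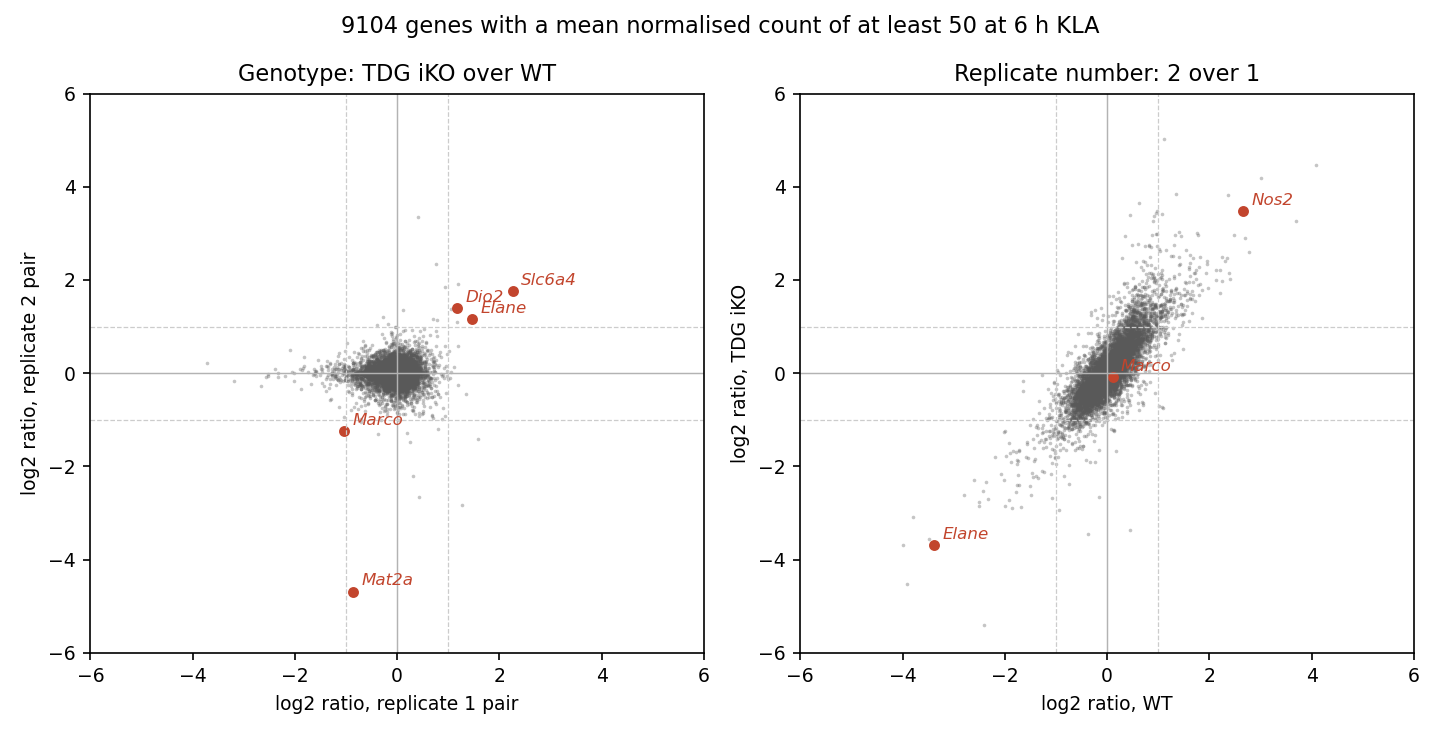
Log2 ratios of normalised counts plus 1 for 9104 genes at 6 h KLA. The left panel sets TDG iKO over WT in replicate 1 (horizontal) against replicate 2 (vertical), and the right panel sets replicate 2 over 1 in WT (horizontal) against TDG iKO (vertical), with dashed lines at a 2-fold difference. The left cloud has no diagonal (r = 0.04), with Slc6a4, Dio2 and Marco as the genes that agreed at 2-fold without overlap between genotypes. Elane agreed at 2-fold within each pair but overlapped between genotypes. The left cloud is wider along replicate 1, where 138 genes differed at least 2-fold against 26 along replicate 2. The right cloud is a diagonal (r = 0.82) with Nos2 and Elane near its ends.

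The gene groups that followed replicate number went the same way in both genotypes, though not always by the same amount. Over all 9104 genes the median absolute log2 step between replicates was 0.32 in TDG iKO and 0.23 in WT. The step was at least 2-fold for 924 genes in TDG iKO and for 359 in WT. Of 30 interferon-stimulated genes, all 30 were higher in replicate 2 in both genotypes, against 42.4% of all genes, by a median of 0.98 in TDG iKO and 0.93 in WT. Rsad2, the antiviral protein viperin, had 13504 and 40306 normalised counts in TDG iKO replicates 1 and 2 and 13911 and 41161 in WT. Ifit2 had 11473 and 36574 in TDG iKO and 11941 and 33875 in WT. Between genotypes the median of the list was 0.07, and 13 of 30 were within 2-fold, where 72.9% of genes averaging at least 50 counts were. In both pairs 14 of the 30 were higher and 2 lower in TDG iKO, against 25.2% and 24.4% of all genes. The median rested on all 4 libraries, being 0.48 without TDG iKO replicate 1, -0.49 without TDG iKO replicate 2, -0.30 without WT replicate 1 and 0.62 without WT replicate 2. Ifi44 had the largest increase of the list, 2867 and 6567 in TDG iKO against 2126 and 4867 in WT (0.43 in each pair). Cell cycle genes went the other way, with a median step of -1.64 in TDG iKO and -1.004 in WT from replicate 1 to 2. Of 23 with a mean count of at least 50, 20 were lower in replicate 2 in both genotypes, against 38.1% of all genes. Top2a, a topoisomerase of dividing cells, had 864 and 162 in TDG iKO and 612 and 184 in WT. Between genotypes the cell cycle list had a median of 0.35, which was 0.30 in the pair of replicate 1 and 0.04 in that of replicate 2, and 11 of the 23 were higher and 1 lower in both pairs, against 25.2% and 24.4%. Over all 30 the fitted median was 0.39, and it was -0.69 without TDG iKO replicate 1, 1.02 without TDG iKO replicate 2, 1.38 without WT replicate 1 and -0.18 without WT replicate 2. Of the 30, 3 were within 2-fold, where 54.9% of all genes tested were.

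Marco encodes a class A scavenger receptor with which macrophages bind bacteria and particles, and it lies on chromosome 1 (mm9, chr1:122371115-122401661, minus strand). It had 4355 and 4096 normalised counts in TDG iKO replicates 1 and 2 and 8958 and 9673 in WT, so both knockout libraries were below both WT libraries and the 2 libraries of each genotype were close together. The log2 ratios were -1.04 and -1.24 in the 2 pairs, and the fitted change was -1.14 (SE 0.38, interval -1.89 to -0.39) with a DESeq2 adjusted p of 1. In a fit of the 4 libraries at 6 h alone its DESeq2 adjusted p was 0.116. No annotated gene overlaps Marco.

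Slc6a4 encodes the serotonin transporter. It had 43.7 and 145 normalised counts in TDG iKO and 8.31 and 41.95 in WT, so the lower knockout library stood just above the higher WT library. The ratios of the pairs were 2.26 and 1.77, and the fitted change was 1.90 (SE 0.92, interval 0.10 to 3.69, DESeq2 adjusted p of 1). Replicate 2 was higher than replicate 1 by 1.71 in TDG iKO and 2.21 in WT, about as much as TDG iKO was above WT.

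Dio2 encodes the deiodinase that activates thyroid hormone. It had 143 and 297 normalised counts in TDG iKO and 62.9 and 112 in WT, with ratios of 1.18 and 1.39 and a fitted change of 1.33 (SE 0.65, interval 0.04 to 2.61, DESeq2 adjusted p of 1). Both knockout libraries were above both WT libraries. Predicted genes overlap Slc6a4 and Dio2 on the opposite strand.

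At a threshold of 1.5-fold, 7 of the 9104 genes were higher and 11 lower in both pairs without overlap. The same count along the replicate number was 722 higher in replicate 2 in both genotypes and 329 lower. With overlap allowed, 13 genes were higher and 14 lower in TDG iKO in both pairs, while 16 went opposite ways in the pairs. Among the 7 higher without overlap were Clec7a, the β-glucan receptor dectin-1, at 183 and 203 normalised counts in TDG iKO where both WT libraries had 108, and Igf2bp3, an RNA-binding protein, with 76.5 and 87.3 against 43.9 and 49.9. Among the 11 lower without overlap were the collagen gene Col4a5, with 60.7 and 58.0 in TDG iKO and 126 and 112 in WT, the ligand gene Wnt6, with 103 and 152 against 169 and 302, and Sh3pxd2a, with 36.4 and 49.5 against 62.9 and 84.7. Ndor1 was in the same set. Clec7a was named after its values were seen. Mat2a, an S-adenosylmethionine synthetase, was also in it with 41.3 and 3.09 in TDG iKO and 76.0 and 104 in WT, and its values across all 8 libraries of the cohort ran from 0.917 to 104 and it is reported as uncertain.

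The genes with the largest agreeing ratios held a set that overlapped between genotypes. Mpo, Elane and Prtn3, enzymes of the primary granules of immature neutrophils, and Ms4a3, a gene of granulocyte and monocyte progenitors, were at least 2-fold higher in TDG iKO within each pair. Mpo had 1255 and 106 normalised counts in TDG iKO and 559 and 49.1 in WT, with ratios of 1.17 and 1.09. Elane had 439 and 33.2 in TDG iKO and 158 and 14.2 in WT. Prtn3 had 476 and 36.3 in TDG iKO and 228 and 13.5 in WT. Replicate 2 lay far below replicate 1 in both genotypes, by 3.55 and 3.48 on the log2 scale for Mpo, so the second knockout library was below the first WT library. The 15 granulocyte markers tested gave 0 calls and 0 within 2-fold, where 54.9% of all genes tested were. Their summed normalised counts were 9146 and 4951 in TDG iKO and 5505 and 4700 in WT, and Csf3r, the receptor for granulocyte colony-stimulating factor, did not share the pattern (1112 and 2875 in TDG iKO, 1438 and 2687 in WT). The part of immature myeloid cells in the other ratios was not tested.

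**Figure D5:**
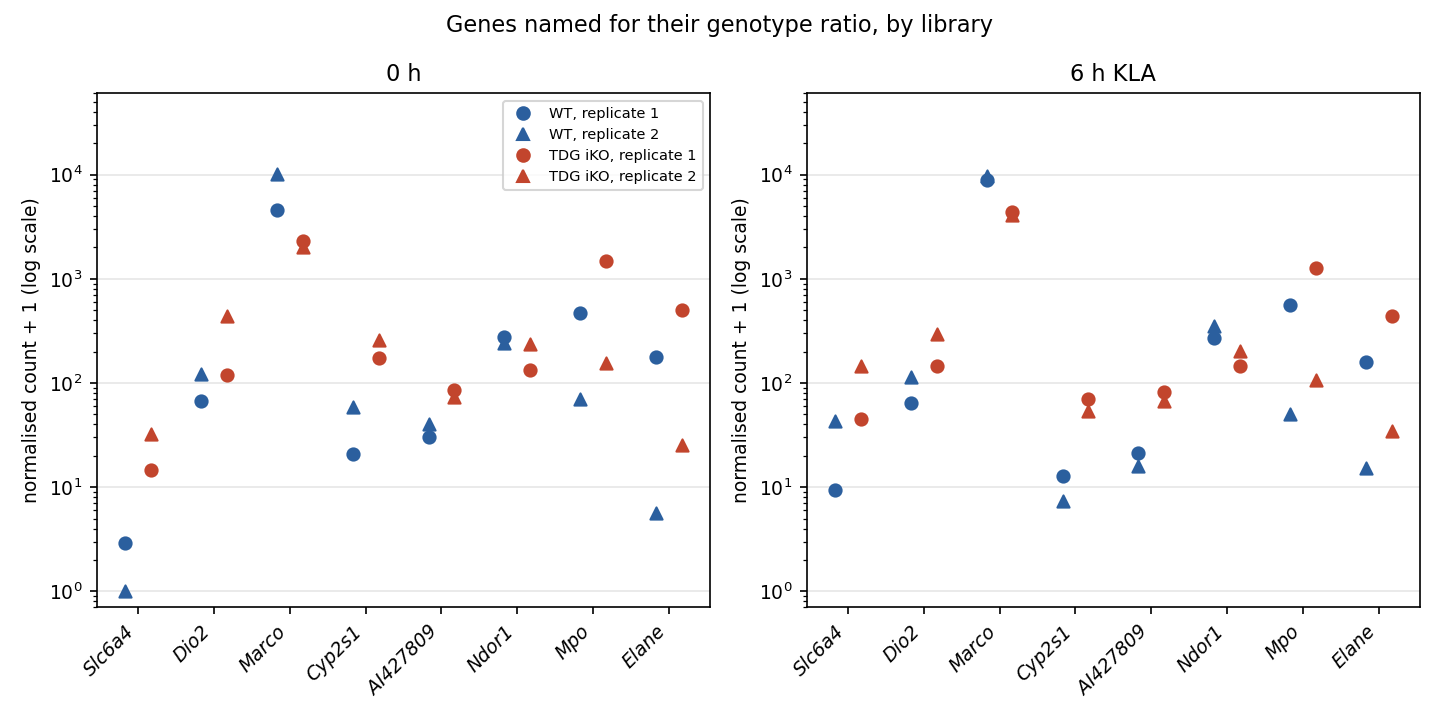
Normalised counts plus 1 (log axis) of 8 genes in the 8 libraries of the Tdg cohort at 0 h (left) and at 6 h KLA (right), WT in blue and TDG iKO in red, replicate 1 as circles and replicate 2 as triangles. At 6 h Slc6a4, Dio2, Cyp2s1 and AI427809 are higher and Marco and Ndor1 lower in both TDG iKO libraries, while Mpo and Elane are lower in replicate 2 of both genotypes.

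Of the 5 genes with the smallest p-values 1 was Marco, and the others had few counts in at least 1 genotype. Cyp2s1, a cytochrome P450 induced through the aryl hydrocarbon receptor, had 69.2 and 53.3 normalised counts in TDG iKO and 11.9 and 6.33 in WT. Both knockout libraries were above both WT libraries, with a log2 fold change of 2.79 (SE 0.66, interval 1.49 to 4.08) and a DESeq2 adjusted p of 0.365. With a separate replicate block at each time it was the only gene called, at an adjusted p of 0.0462, and with a common block its adjusted p was 0.0684. AI427809 had 81.4 and 65.7 in TDG iKO and 20.2 and 15.04 in WT, a change of 2.07 (SE 0.52, DESeq2 adjusted p = 0.542). For LOC100038947 the values were 25.5 and 89.6 against 9.49 and 7.12. Uqcrc1, a subunit of respiratory complex III, reached 134 in TDG iKO replicate 1 alone, against 4.75 to 7.92 in the other 3 libraries, so its p rested on 1 library. With the minimum mean count lowered to 20, 6 genes were at least 2-fold higher in both pairs without overlap (AI427809, Cyp2s1, Dio2, LOC100038947, Prss34 and Slc6a4) and 4 lower (Cbx7, Emp2, Marco and Ryk). Prss34, Cbx7, Emp2 and Ryk were named after their values were seen.

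Libraries from unstimulated cells of the same cohort gave a look at the same genes without KLA. Of the 8 genes with the largest increase that agreed at 6 h, 7 were also higher in TDG iKO in both 0 h pairs, against 21.7% of all 9104 genes. Of the 8 with the largest decrease, 3 were lower in both, against 20.7%. The 8 with the increase include Mpo, Elane, Prtn3 and Ms4a3, genes of immature myeloid cells, so they are not separate observations. The labels do not say whether libraries at 0 h and 6 h came from the same cultures, and these counts are a description. Marco had 2322 and 2039 normalised counts in TDG iKO and 4585 and 10076 in WT at 0 h, a change of -1.75 (DESeq2 adjusted p = 0.0694). Cyp2s1 had 172 and 260 in TDG iKO and 19.9 and 57.5 in WT (2.55, DESeq2 adjusted p = 0.111). Dio2 had 117 and 439 in TDG iKO and 66.4 and 122 in WT (1.58, DESeq2 adjusted p of 1), and Slc6a4 had 13.8 and 31.2 in TDG iKO and 1.90 and 0 in WT. Col4a5 was not lower at 0 h, with 78.0 and 125 in TDG iKO and 64.5 and 104 in WT. DESeq2 called 0 of 15026 genes at 0 h (0%) and 0 for a KLA response that differed between genotypes (0%), with 37 genes at an unadjusted p under 0.05 in the latter test. Of the 0 h values, those of WT replicate 2 came from the shallow library named above. The granule gene Mpo had 1494 and 155 in TDG iKO and 467 and 69.0 in WT at 0 h. With a separate replicate block at each time, 4 of 15026 genes were called at 0 h (0.0266%), namely Cyp2s1 (2.63, DESeq2 adjusted p = 0.00441), Marco (-1.64, DESeq2 adjusted p = 0.00441), Mpo (1.46, DESeq2 adjusted p = 0.0397) and the ribosomal RNA gene Rn45s. Rn45s was named after its values were seen.

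A second cohort, in which TET1, TET2 and TET3 were deleted with the same CreERT2 (TET iTKO), had its own WT libraries and gave 762 calls among 11823 genes at 6 h (6.45%). There Marco was lower in TET iTKO, at 3750 and 5694 normalised counts where WT had 8467 and 8892 (log2 fold change -0.88, DESeq2 adjusted p = 2.18e-05). Ndor1 was lower too (282 and 216 against 425 and 387, -0.71, DESeq2 adjusted p = 0.010). Of the 8 genes with the largest agreeing decrease under TDG loss, 3 were called lower in TET iTKO (Marco, Ndor1 and Adam19), and of the 8 with the largest increase 2 were called higher (Ms4a3 and Prtn3) and 1 lower (Pianp). Hmox1, the haem oxygenase and an NRF2 target, had 9199 and 9652 in TDG iKO and 12487 and 14401 in WT, a change of -0.51 within 2-fold (interval -0.97 to -0.05, adjusted p = 0.0381), and was called lower in TET iTKO (-0.62, DESeq2 adjusted p = 0.000822). Klf2, a transcription factor that restrains macrophage activation, had 233 and 274 in TDG iKO and 383 and 394 in WT (-0.62, interval -1.17 to -0.06), and was called lower in TET iTKO (-0.83, DESeq2 adjusted p = 0.00356). Hmox1 and Klf2 were named as the largest decreases of the NRF2 and immediate-early lists. Neither was called in TDG iKO, and their intervals are not adjusted for the number of genes. How the other members of these lists stood in TET iTKO was not counted here. Il6 was called higher in TET iTKO by 3.21 (DESeq2 adjusted p = 0.0241) and Il1b by 1.62 (DESeq2 adjusted p = 0.0215), where TDG iKO gave 0.01 and 0.16 with the intervals above. Whether the TET and TDG effects differ was not tested here.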

How the data were processed

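Polyadenylated RNA of mouse BMDMs was sequenced as directional paired-end libraries. The authors aligned reads to mm9 with HISAT2 and made the deposited raw counts per gene with HTSeq, for 23420 symbols, and the submitters' notes name DESeq2 1.30.0. Annotation and strand setting are not given in the sources used here. Tallies of unassigned pairs were left out of library sizes.

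Genotypes were compared by DESeq2 1.42.0 (Wald test, R 4.3.3) on the 8 libraries of the Tdg cohort, with group means, Benjamini-Hochberg adjustment and a threshold of 0.05. The same fit tested for changes under 2-fold (DESeq2's lessAbs, adjusted p under 0.05), and every adjusted p for a gene within 2-fold is from it. edgeR 4.0.16 (quasi-likelihood test, TMM) was the alternative. Pair ratios were log2 of the normalised count plus 1, TDG iKO minus WT, at a mean count of at least 50. Genes named were Tdg, Tet1 to Tet3, Ndor1, 6 enhancer-linked and 10 activation genes, the 8 largest agreeing ratios in each direction, the 5 smallest p-values, and in each list named the largest increase, the largest decrease and up to 2 members of highest count. The members and lists were chosen with earlier results of these data known. Scripts were tested on simulated data. Tet cohort libraries were fitted separately, and T cell libraries were not used here.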

Additional observations from a re-analysis of the deposited data

Results flagged for a closer look

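In TDG iKO replicate 1 at 6 h, 7.03% of read pairs did not align, against 2.09% to 2.52% in the other 3 libraries of the comparison. The value lies outside the gene counts that the comparisons use, and it stood above both WT libraries. Its ratio to WT replicate 1 was lower for longer genes, with a Spearman rho of -0.18 with exonic length across 8702 genes. A ratio does not say which of the libraries carries the trend. The ratio of replicate 2 over 1 was higher for longer genes in both genotypes, with a rho of 0.17 in TDG iKO and 0.14 in WT. The part of TDG iKO replicate 1 in single ratios was not tested beyond leaving it out.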

How the results depend on the processing

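The count of 0 genes called by DESeq2 held with TMM factors, a filter of 10 counts in 2 libraries, the 4 libraries at 6 h alone, each library left out and edgeR. It was 0 with the replicate block (90 genes at an unadjusted p under 0.05) and 1 with the replicate block within time (Cyp2s1, 60 at an unadjusted p under 0.05). The labels do not say what a replicate number shares, and with 2 pairs the numbers are not taken as a pairing, although the deviations of same-numbered libraries correlated at 0.82 across genes. Leaving out each library moved the count within 2-fold to between 1474 and 2441 and the median of the KLA-induced genes to between -0.50 and 0.28 and of the KLA-lowered genes to between -0.24 and 0.21, since each such fit sets 1 library of one replicate number against both numbers and assumes that the lone library varies like the other groups. Within 1.5-fold the count was 0. With 100 genes the KLA-lowered median was 0.074. The agreeing counts were 7 higher and 11 lower at 1.5-fold, 6 and 4 at a mean count of 20 and 1 and 1 at 100, and they cannot be recomputed without a library. At 0 h, TMM factors gave 8 higher and 2 lower and a pseudocount of 5 gave 7 and 3, settings chosen after seeing the data, and the replicate block within time gave 4 calls where 0 were made without it, a setting also added afterwards. Signs turned for Il6 (-0.0068 with the replicate block, -0.016 with the block within time), Il12b (0.048 with the block), Alcam (-0.010) and Tnfaip3 (-0.016, both with the block within time), all changes near 0.

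Leaving out 1 library turned the sign of the log2 fold change of 21 named genes, whose ranges ran for Tet2 from -0.13 to 0.20, for Alcam from -0.64 to 0.51, for Batf from -0.62 to 0.65, for Il6 from -0.56 to 0.47, for Mdfic from -0.12 to 0.38, for Il12b from -0.11 to 0.075, for Il10 from -0.67 to 1.01, for Nos2 from -2.19 to 2.28, for Ccl5 from -1.21 to 1.40, for Nfkbia from -0.14 to 0.16, for Tnfaip3 from -0.30 to 0.27, for Ifit1 from -0.63 to 0.88, for Tet3 from -1.01 to 0.13, for Tnf from -0.23 to 0.16, for Irg1 from -0.24 to 0.059, for Cxcl10 from -0.74 to 0.51, for Ms4a3 from -1.02 to 4.52, for Elane from -1.37 to 4.05, for Mpo from -1.52 to 3.79, for Prtn3 from -1.73 to 4.25 and for Ptgs2 from -0.33 to 0.53. Over the alternatives, 338 values for single genes kept their direction and side of the threshold, 41 changed sign and 1 passed the threshold, and of the list medians 183 moved by less than the spread between the pairs and 87 by more. Depth limits genes with few counts, and the median standard error of 0.37 on the log2 scale limits what 2 libraries a genotype can show for 1 gene.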
